A study of Homo sapiens with 6 samples.

Results

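The genes described here are the interferons that T47D cells transcribed and the receptor chains that bind interferons: the ligand genes IFNL1, IFNL2, IFNL3 and IFNB1, and the receptor genes IFNLR1, IL10RB, IFNAR1, IFNAR2, IFNGR1 and IFNGR2. They were chosen by symbol, with their counts in these libraries already known, and are 10 of the 17891 genes in the deposited table. RNA was sequenced from T47D, an established human breast cancer line of luminal type, in 2 groups of 3 libraries that the series calls biological replicates. The control group had received the empty pLVX-puro lentivirus, named PLVX in the labels, and the PRL group the same vector carrying PRL, the prolactin gene. Both groups were grown in RPMI1640 with serum for 2 days, carried a lentivirus and received no other treatment. The labels do not say whether the PRL cells were 1 clone or a pool, or whether the replicates came from separate transductions, so the errors given here measure the spread between these libraries only.

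Interferons are secreted proteins that infected or stressed cells release to warn their neighbours. IFN-β, the product of IFNB1, belongs to type I and signals through IFNAR1 and IFNAR2, which most cells carry. The lambda interferons, or type III, signal through IFNLR1 paired with IL10RB, and IFNLR1 is found mainly on epithelial cells, the cell type from which breast carcinomas arise. IFN-γ, the only type II interferon, uses IFNGR1 and IFNGR2. Types I and III activate the kinases JAK1 and TYK2 and the transcription factor complex ISGF3, which includes STAT2 and IRF9, whereas IFN-γ uses JAK1 and JAK2.

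Libraries held 16211146 to 17402348 estimated counts. Levels are given in CPM, the usual unit of counts relative to library size, here with library sizes adjusted by TMM (trimmed mean of M values), as mean ± SD over the 3 libraries of a group (n = 3). One count stood for 0.0551 to 0.0678 CPM. PRL itself lay at 0.152 ± 0.0781 CPM in controls and at 449.6 ± 7.63 CPM in cells with the PRL vector, in the direction of the labels. Control libraries differed more from each other than PRL libraries did (chi-square per gene of 13.4 to 25.7 between controls and of 1.68 to 2.22 between PRL libraries). The share of counts on ribosomal protein genes moved with the groups too, at 15.6% to 18.7% in controls and 10.1% to 10.6% in the PRL group. All 8 luminal markers (among them KRT8, GATA3 and ESR1) were above 1 CPM. Their summed level was 19810 to 25900 CPM in controls against 15480 to 15950 CPM in PRL libraries. Keratins made up most of that sum, and KRT8 (mean 9840 against 6513 CPM), KRT18 and KRT19 were lower with PRL, as was ESR1. EPCAM, GATA3 (726 against 850 CPM), FOXA1 (176 against 247 CPM) and PGR (391 against 705 CPM) were higher, so the markers did not move as a set.

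The promoters of the 4 ligand genes are shown because these genes moved together. The 3 lambda sequences run from 230 to 91 bases before the RefSeq start site and the IFNB1 sequence from 130 to 31 bases before it, on the strand of the gene (RefSeq, GRCh38.p14). Capitals mark the letters searched for: 2 copies of GAAA with any 2 or any 3 bases between them, the kind of repeat that interferon regulatory factors bind, and GGAAATTC, part of many NF-kB sites. Each was searched on both strands, so a GAAA repeat on the other strand reads as TTTC here.
IFNL1 (chr19:39296177-39296316, plus strand): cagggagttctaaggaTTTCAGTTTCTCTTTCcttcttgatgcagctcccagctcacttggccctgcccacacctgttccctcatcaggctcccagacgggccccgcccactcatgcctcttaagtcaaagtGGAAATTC
IFNL2 (chr19:39268166-39268305, plus strand): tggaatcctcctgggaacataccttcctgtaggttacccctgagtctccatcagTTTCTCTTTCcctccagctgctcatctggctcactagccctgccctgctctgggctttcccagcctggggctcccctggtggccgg
IFNL3 (chr19:39245341-39245480, minus strand): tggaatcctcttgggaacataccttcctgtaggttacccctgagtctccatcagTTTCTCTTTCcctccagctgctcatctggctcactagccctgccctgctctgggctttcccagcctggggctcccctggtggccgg
IFNB1 (chr9:21077973-21078072, minus strand): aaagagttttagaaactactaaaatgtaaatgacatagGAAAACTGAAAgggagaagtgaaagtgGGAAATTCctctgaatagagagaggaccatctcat

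The IFNL1 promoter held overlapping GAAA repeats of the spacing of 2 that begin 214 and 208 bases before its start, and GGAAATTC 98 bases before it. IFNL2 and IFNL3 each held 1 such repeat 176 bases before the start, and 1 repeat of the spacing of 3, 70 bases before it and outside the stretch shown. IFNL3 had 2 RefSeq windows, and all that is given for it refers to the window printed in part above. The other IFNL3 window held none of the 3 motifs. IFNB1 held a repeat of the spacing of 3, 92 bases before its start and GGAAATTC 65 bases before it. Over the full window of 300 bases the IFNL2 and IFNL3 promoters agreed at 299 positions and differed at 1, C220T, where the first letter is the base of IFNL2, the number counts bases before the start and the last letter is the base of IFNL3. The GAAA repeat with a spacing of 2 was found in 3.57% of all 35116 RefSeq promoter windows of this length, that with a spacing of 3 in 2.86% and GGAAATTC in 1.26%. Promoter windows were matched for 9 of the 10 genes, 12 windows in all, and IFNAR2 was not matched. None of the receptor windows held any of these 3 motifs, which says only that these letters are not in the windows. A match to letters is a description and not a binding site.

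Lambda interferon transcripts were at or near 0 in control libraries and present in every PRL library. IFNL1 had 0 counts in each control library and 67, 70 and 82 counts in PRL replicates 1 to 3. IFNL2 had 0, 0 and 2 counts in controls and 60.85, 47.63 and 51.13 in the PRL libraries. IFNL3 had 0, 1 and 0 counts in controls and 38.15, 44.37 and 40.87 in the PRL libraries. The groups did not overlap for any of the 3 genes, and the lowest PRL library held at least 38.15 counts of each.

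In CPM, IFNL1 reached 4.08 ± 0.523 in the PRL group, IFNL2 2.98 ± 0.372 and IFNL3 2.29 ± 0.165. Against an assumed floor of 3 counts per control library (0.187 to 0.203 CPM), the mean of IFNL1 was 21.0-fold higher. That value leaves out the error of the PRL counts and is no strict bound. For IFNL2 the ratio of counts was 69.2 (95% counting interval 18.8 to 576) and for IFNL3 it was 106 (18.7 to 4233). Both control counts of IFNL2 came from control replicate 3 and the 1 control count of IFNL3 from control replicate 2. Without control replicate 3 the fitted log2 fold change of IFNL2 went from 5.89 to 8.66, and without control replicate 2 that of IFNL3 went from 6.31 to 8.28. Such fitted values rest on a prior count added to groups near 0 and are no bound.

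IFNL2 and IFNL3 resemble each other closely, so the division of reads between them is uncertain. Their longest GENCODE 29 transcripts were identical at 97.6% of 737 aligned positions, with 125 bases as the longest identical run, against 63.8% for IFNL1 and either of them. The deposited counts of each gene were not whole in the PRL libraries, but their sum was, at 99, 92 and 92 counts (within 0.005). Added up, IFNL2 and IFNL3 had 3 control counts and 283 PRL counts, a ratio of 81.6 (95% counting interval 27.6 to 398), and 5.27 ± 0.208 CPM in the PRL group. The 3 lambda genes together had 3 control counts and 502 PRL counts, a ratio of 145 (49.2 to 704), or 9.35 ± 0.522 CPM in the PRL group.

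Per length, IFNL1 gave the largest part of the lambda transcripts. Of the deposited TPM of the 3 genes, a unit scaled for transcript length and library size, IFNL1 took 45.2% ± 3.24 in the PRL libraries, IFNL3 28.1% ± 2.53 and IFNL2 26.6% ± 3.79. IFNL1 lay above both others in every PRL library, at 9.46, 9.56 and 11.4 TPM. The order of IFNL2 and IFNL3 differed between libraries, at 6.92 and 5.93 TPM in PRL replicate 1, 5.24 and 6.66 in replicate 2, and 5.72 and 6.25 in replicate 3.

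IFNB1, the type I interferon gene, was close to the limit of detection. It had 0 counts in every control library and 3, 7 and 7 counts in PRL replicates 1 to 3, which is 17 counts in all and 0.317 ± 0.131 CPM. Against the assumed floor of 3 counts per control library its mean was 1.63-fold higher, which is no strict bound either. PRL replicate 1 lay at that floor in counts and below it in CPM (0.166). IFNB1 was also the only one of the 10 genes that did not pass the filter on low counts (edgeR's filter by group), which IFNL1, IFNL2 and IFNL3 passed through the PRL group alone. Per length it lay at 0.72 ± 0.286 TPM in the PRL group, the lowest of the 10 genes and below every single value of the lambda genes there.

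**Figure D1:**
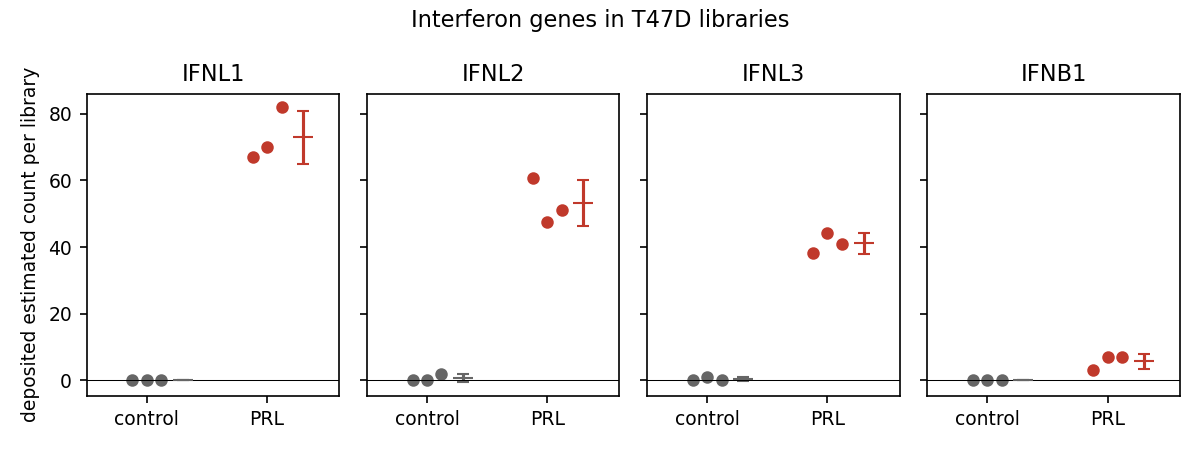
Deposited estimated counts (vertical axis) of IFNL1, IFNL2, IFNL3 and IFNB1 in the 3 control and 3 PRL libraries. Points are libraries, and the bars beside them give mean and SD. Control libraries lie at 0 to 2 counts, and PRL libraries at 38.15 to 82 for the lambda genes and at 3 to 7 for IFNB1.

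Of 18 other interferon genes looked for, only IFNA10 was in the table, with 1 count in PRL replicate 3 and 0 in the other libraries. The other 17, which are the other IFN-α genes, IFNW1, IFNE, IFNK, IFNG and IFNL4, were not analysed here. The related cytokines IL19, IL20 and IL24 had at most 3 counts in any library. IL10, the founding member of the family whose receptor also contains IL10RB, had 0.714 ± 0.244 CPM in controls against 0.538 ± 0.131 CPM with PRL (edgeR adjusted p = 0.398).

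Markers of other cells that make interferon were low in both groups. Of the leukocyte markers, PTPRC, which nearly all white blood cells carry, had a mean of 0.925 CPM in controls against 0.95 CPM with PRL, CD3E 0.541 against 1.06, CD14 0.365 against 0.913, NKG7 0.0846 against 0.186 and LYZ 2.94 against 1.53 CPM. Markers of plasmacytoid dendritic cells, the main makers of type I interferon in blood, summed to 3.31 to 6.25 CPM and 3.14 to 3.71 CPM, with LILRA4 at 0.0226 and 0 CPM. Endothelial markers summed to 0.936 to 1.53 and 0.881 to 1.08 CPM. Fibroblast markers summed to 42.6 to 59.2 CPM in controls against 71.5 to 72.1 CPM in PRL libraries. Nearly all of that was COL1A1 (50.1 and 71.3 CPM), while DCN, LUM and COL3A1 were under 0.1 CPM in both. Basal markers summed to 16.6 to 19.0 and 13.3 to 13.9 CPM, with ACTA2 lower with PRL (15.5 and 7.68 CPM) but TP63 (1.61 and 3.84 CPM) and KRT17 (1.02 and 1.84 CPM) higher. As these are bulk libraries, a few cells with much interferon RNA and many cells with little cannot be told apart.

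The receptor genes were expressed in every library of both groups, and they differed between groups by less than the ligands. IFNLR1, the chain that only lambda interferons use, had 3.73, 7.53 and 5.99 CPM in control replicates 1 to 3 and 8.91, 7.65 and 8.16 CPM in the PRL libraries. The groups did not overlap, but control replicate 2 lay just under PRL replicate 2, and control replicate 1 was the lowest. The log2 fold change was 0.51 (SE 0.21) from 5.75 ± 1.91 to 8.24 ± 0.635 CPM. It was 0.29 without control replicate 1. Because IFNLR1 and the other receptor genes were chosen with these values known, their differences are described and not tested.

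IL10RB, the shared second chain of the lambda receptor, had 21.1, 20.7 and 23.6 CPM in controls and 27.5, 28.96 and 28.93 CPM in the PRL libraries. All PRL libraries lay above all controls (log2 fold change 0.39, SE 0.09). Within a library IL10RB was 9.65 ± 3.42 times IFNLR1 in TPM in controls and 8.17 ± 0.761 times in the PRL group. This ratio does not depend on how libraries are scaled, and the groups overlapped in it.

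The chains of the type I receptor lay on different sides of the controls in CPM, though for IFNAR1 the side depended on the scaling. IFNAR2, the chain that binds type I interferons most tightly, had 8.27, 8.80 and 8.36 CPM in controls and 10.9, 10.5 and 12.2 CPM in the PRL libraries, with no overlap (log2 fold change 0.40, SE 0.11). IFNAR1 had 63.8, 67.7 and 69.3 CPM in controls and 63.1, 56.3 and 58.4 CPM in the PRL libraries. Here the PRL libraries lay below the controls, by a small margin between PRL replicate 1 and control replicate 1. The log2 fold change of IFNAR1 was -0.17 (SE 0.08) and its direction depended on the scaling, at 0.08 with library totals, 0.25 on FPKM and 0.45 on TPM.

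Those scalings moved the median of the genes tested in each. The median log2 fold change was 0.01 with TMM, 0.26 with library totals, 0.20 on FPKM and 0.39 on TPM. So IFNAR1 lay below that median with totals and slightly above it on FPKM and TPM. The genes tested numbered 14076 with TMM and with totals, 11840 on FPKM and 12494 on TPM. The split of called genes moved as well, with 51.4% higher under TMM, 72.9% with totals, 69.9% on FPKM and 83.7% on TPM. The ratio of IFNAR1 to IFNAR2 within a library needs no scaling. In TPM it was 5.88 to 6.58 in controls and 4.07 to 5.32 in the PRL libraries, without overlap.

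With all libraries the IFN-γ receptor chains had larger log2 fold changes than the other 4 receptor genes, but without control replicate 2 IFNLR1 (0.75) lay above IFNGR2 (0.73) and IFNGR1 (0.72). IFNGR1, the chain that binds IFN-γ, had 8.61, 9.76 and 12.8 CPM in controls and 17.1, 18.9 and 17.4 CPM in the PRL libraries (log2 fold change 0.77, SE 0.14). IFNGR2, the signalling chain that brings in JAK2, had 22.98, 21.3 and 25.9 CPM in controls and 39.7, 40.2 and 42.3 CPM in the PRL libraries (log2 fold change 0.80, SE 0.09). Neither gene's groups overlapped. The 2 chains kept their proportion, with IFNGR2 at 2.82 ± 0.412 times IFNGR1 in TPM in controls and 2.81 ± 0.186 times in the PRL group, where the groups overlapped.

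In CPM, 5 of the 6 receptor genes and all 4 ligand genes lay higher in every PRL library than in any control, and 1 receptor gene, IFNAR1, lay lower. Among all 14076 genes that passed the filter, the groups lay apart for 69.5%, with 35.9% higher and 33.5% lower. The choice of genes used this contrast, so nothing is read from that count. Control replicate 3 was the highest control for 4 of the 6 receptor genes and control replicate 1 the lowest for 4, and control replicate 1 also had the largest ribosomal protein share. Any part of that spread in these values was not tested.

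**Figure D2:**
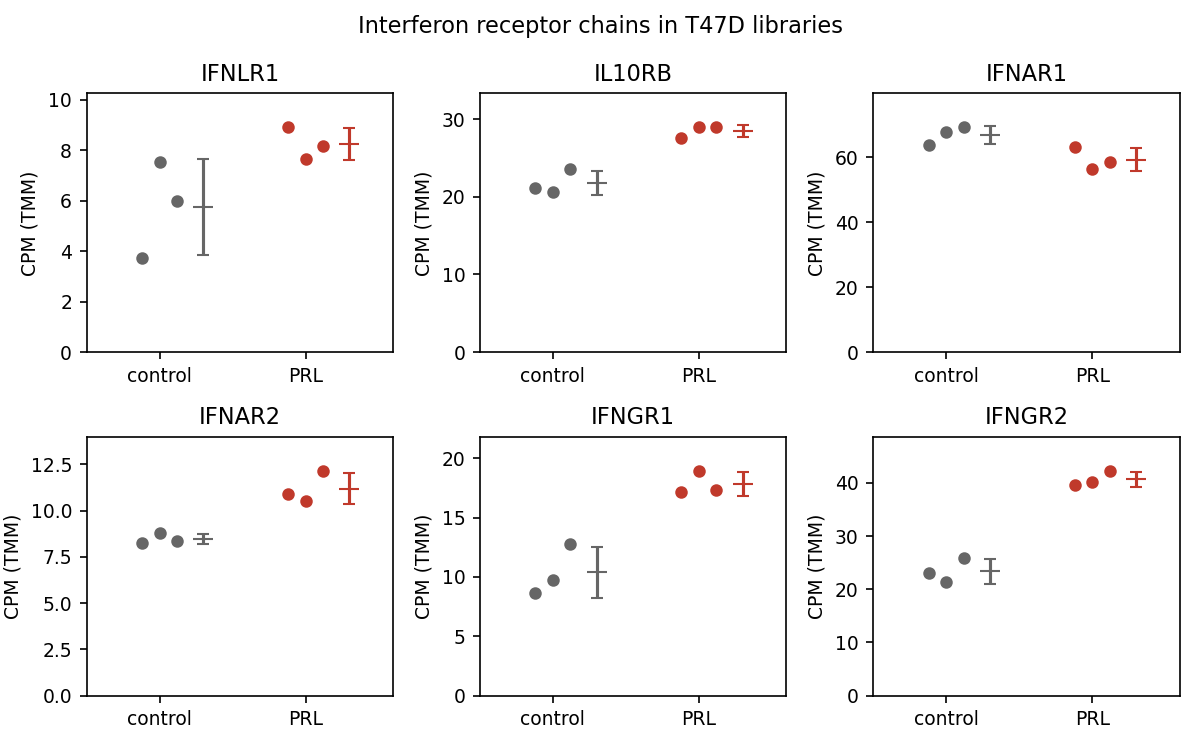
Level (CPM, TMM scale, axes from 0) of the 6 receptor genes in the 3 control and 3 PRL libraries. Points are libraries, with mean and SD beside them. PRL libraries lie above controls for 5 genes and below them for IFNAR1, whose direction reverses with library totals, FPKM and TPM.

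**Figure D3:**
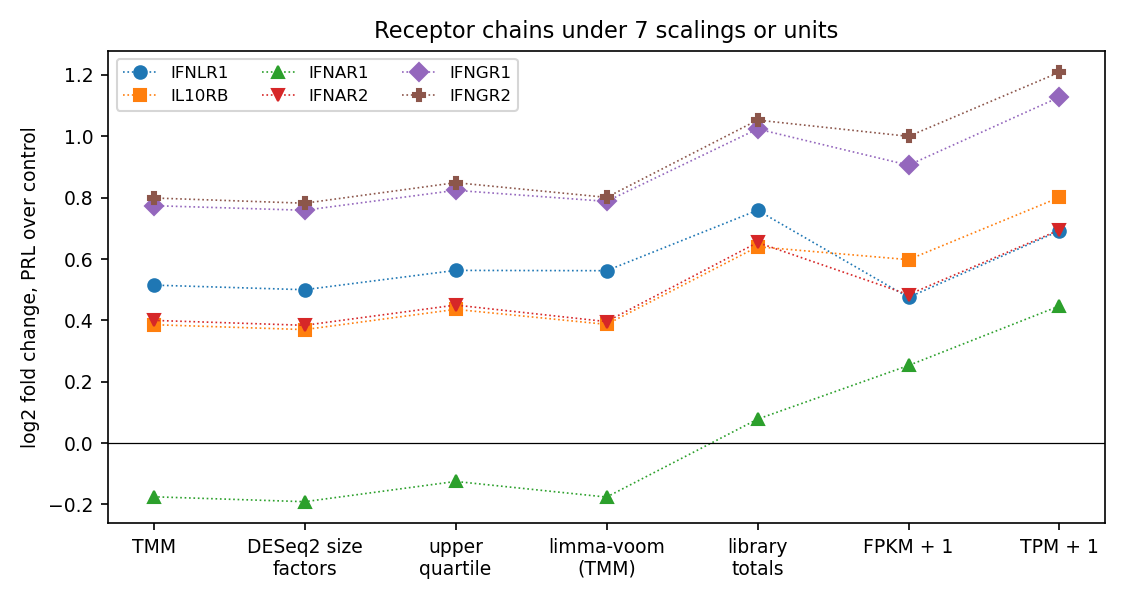
Log2 fold change, PRL over control, of the 6 receptor genes (symbols) under 7 scalings or units, with dotted lines joining the values of a gene. IFNAR1 runs from -0.19 with DESeq2's size factors to 0.45 on TPM and crosses 0, and the other 5 genes stay above 0 throughout.

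Because TPM is scaled for length, levels of different genes can be set side by side on it. In controls IFNGR2 (18.8 ± 3.09 TPM), IFNAR1 (16.6 ± 2.76) and IL10RB (15.3 ± 2.36) formed the top, and neighbours among them overlapped. IFNGR1 followed at 6.86 ± 1.98 TPM, apart from the genes on either side. IFNAR2 (2.69 ± 0.379) and IFNLR1 (1.75 ± 0.710) overlapped each other, and the ligands came last. The less abundant chain of each receptor was IFNAR2 for type I, IFNLR1 for type III and IFNGR1 for type II.

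In the PRL group the order was IFNGR2 (44.4 ± 0.630 TPM), IL10RB (27.2 ± 0.333), IFNAR1 (22.9 ± 3.18), IFNGR1 (15.8 ± 0.844), IFNL1 (10.1 ± 1.09), IFNL3 (6.28 ± 0.366), IFNL2 (5.96 ± 0.865), IFNAR2 (4.95 ± 0.269), IFNLR1 (3.34 ± 0.289) and IFNB1. Of the 9 pairs of neighbours 8 did not overlap, and only IFNL3 and IFNL2 did. Each lambda transcript lay above that of IFNLR1, the receptor chain particular to them, in every PRL library. The less abundant chain of each receptor was the same gene as in controls.

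**Figure D4:**
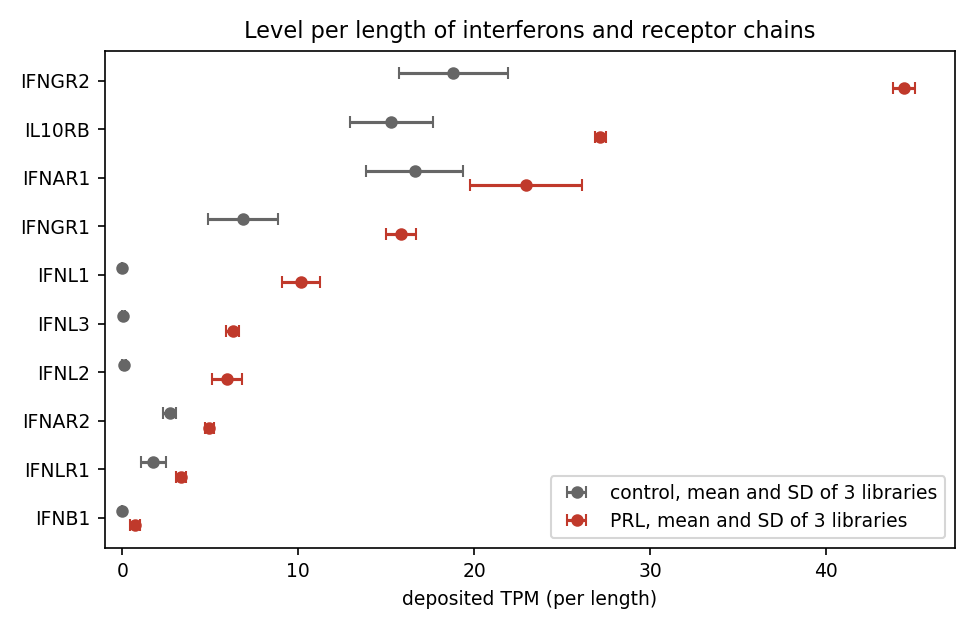
Deposited TPM (horizontal axis, scaled for gene length) of the 10 genes, ordered by their level in the PRL group, as mean and SD of 3 libraries. IFNGR2 leads at 44.4 TPM in the PRL group, the 3 lambda genes lie between IFNGR1 and IFNAR2, and IFNB1 lies lowest at 0.72 TPM.

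The genes around the receptors come from lists of pathway members, written with earlier results of these data known, and were tested in the fit across all genes. Their counts are therefore no independent evidence of direction. Of 14076 genes tested, edgeR called 62.9% at an adjusted p under 0.05, 32.4% higher and 30.5% lower, with a median log2 fold change of 0.01. Of the 49 tested genes in all lists, 34 were called higher and 4 lower, with a median of 0.56.

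Among the receptor kinases and the genes of ISGF3, both directions were seen. IRF9, the DNA-binding part of ISGF3, rose from 10.8 ± 1.36 to 81.9 ± 0.865 CPM and STAT2 from 35.5 ± 5.56 to 119 ± 3.75 CPM (edgeR adjusted p = 5.5e-09 and 5.4e-07). JAK1, the kinase that all 3 receptor types share, fell from 94.9 ± 7.64 to 38.0 ± 2.51 CPM (log2 fold change -1.32 with an SE of 0.09, edgeR adjusted p = 9.7e-07). Over 17 other settings its log2 fold change was -1.37 to -0.83 and its call held in each. TYK2, the partner kinase on IFNAR1 and IL10RB, had 38.7 ± 2.90 and 41.0 ± 2.46 CPM, and JAK2 had 2.26 ± 0.863 and 3.26 ± 0.541 CPM (edgeR adjusted p = 0.412 and 0.116).

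Of 10 genes that brake interferon receptors 8 rose, none fell, and PTPN2 and PTPN11 did not pass (median log2 fold change 0.58). Among those that rose, the call was lost for SOCS1 in 4 of 16 other settings, for SOCS3 in 4 of 17 and for PTPN6 in 3 of 17. ISG15, a ubiquitin-like protein that stabilises USP18, rose from 6.67 ± 2.56 to 526 ± 23.3 CPM (edgeR adjusted p = 6.6e-09). USP18, which sits on IFNAR2 and dampens the type I receptor, rose from 9.78 ± 0.427 to 45.8 ± 1.20 CPM (edgeR adjusted p = 1.8e-08). PIAS1, an inhibitor of activated STAT proteins, and BTRC, the ubiquitin ligase subunit that marks IFNAR1 for breakdown, rose by less, with log2 fold changes of 0.48 and 0.60 (edgeR adjusted p = 3.1e-04 and 5.3e-04).

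Genes that sense viral RNA and DNA or switch on interferon genes rose in 14 of 19 cases, fell in 2 and did not pass in 3 (median log2 fold change 0.82). The RNA sensors RIGI (8.14 ± 0.843 to 107 ± 2.90 CPM), listed under its older symbol DDX58, IFIH1 (5.45 ± 0.956 to 80.5 ± 5.53 CPM) and DHX58 (12.4 ± 2.26 to 89.0 ± 2.84 CPM) rose, as did IRF7, a transcription factor for interferon genes (8.64 ± 1.08 to 103 ± 4.43 CPM). Their edgeR adjusted p ranged from 8.4e-10 for RIGI to 2.7e-08 for DHX58. The genes that fell, named here after their values were seen, were MAVS, the adaptor of the RNA sensors (log2 fold change -0.70, edgeR adjusted p = 1.7e-04), and the transcription factor gene IRF3 (-0.36, edgeR adjusted p = 0.00922). The call for IRF3 was lost in 3 of 17 other settings, with a log2 fold change of 0.01 in the 1 that turned its direction, and that for MAVS was lost in 1. Among the genes that rose, the call for IRF5 was lost in 8 of 17 and that for NFKB1 in 2.

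Genes known to respond mainly to IFN-γ rose in 5 of 7 tested cases and fell in none (median log2 fold change 1.08). GBP1 (0.669 ± 0.0871 to 5.77 ± 0.393 CPM) and GBP2 (0.755 ± 0.198 to 6.71 ± 0.515 CPM), guanylate-binding GTPases that types I and III can raise too, rose (edgeR adjusted p = 1.2e-06 and 1.3e-06). GBP5 rose as well (log2 fold change 1.08, edgeR adjusted p = 9.8e-04). CXCL10, a chemokine for T cells, had 0, 1 and 0 counts in controls and 44, 32 and 38 in the PRL libraries (edgeR adjusted p = 1.1e-05). CIITA and IDO1, both typical of IFN-γ, did not pass, with 9.88 ± 1.06 and 8.34 ± 0.0969 CPM for CIITA and 0.988 ± 0.304 and 0.854 ± 0.277 CPM for IDO1 (edgeR adjusted p = 0.0941 and 0.623).

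Of 5 tested receptor genes of the same class II cytokine family 3 rose and 1 fell (median log2 fold change 0.42). IL22RA1, which pairs with IL10RB to bind IL-22, rose from 1.72 ± 0.0262 to 3.70 ± 0.136 CPM (edgeR adjusted p = 4.6e-04). IL10RA, which pairs with IL10RB to bind IL-10, rose from 0.128 ± 0.0619 to 0.835 ± 0.188 CPM (edgeR adjusted p = 8.0e-04), and IL20RA from 17.6 ± 1.49 to 23.6 ± 1.35 CPM (edgeR adjusted p = 0.00318). IL20RB fell from 3.24 ± 0.576 to 2.01 ± 0.220 CPM (edgeR adjusted p = 0.0172), a call lost in 5 of 17 other settings, where its adjusted p reached 0.349. F3, a distant relative known as tissue factor, did not pass (edgeR adjusted p = 0.924).

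**Figure D5:**
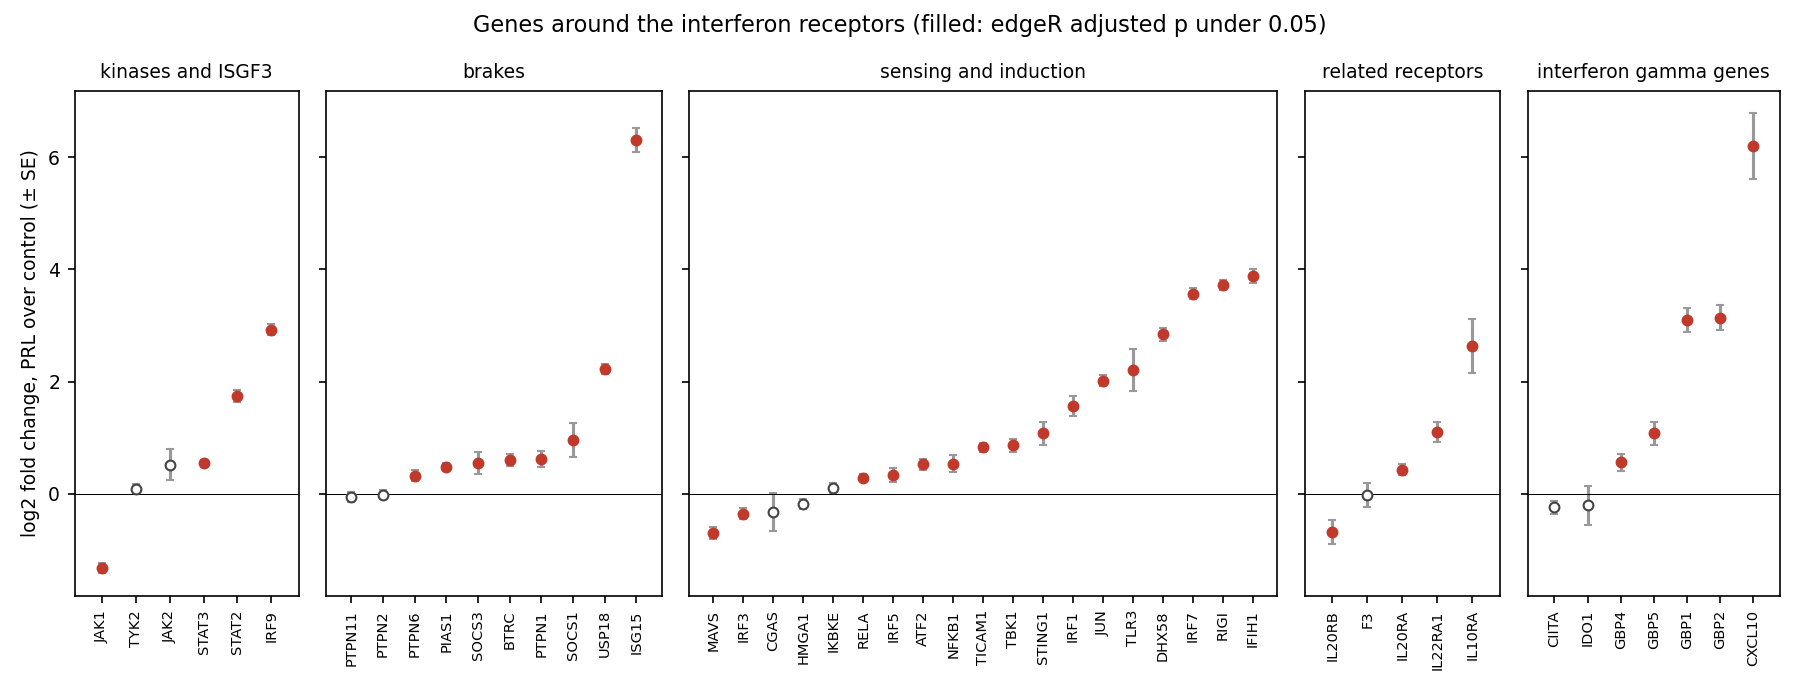
Log2 fold change, PRL over control, with SE (vertical axis) for tested genes of 5 lists. Filled points passed edgeR's adjusted p of 0.05 and open points did not. IRF9, RIGI, IFIH1 and DHX58 lie at 2.84 or more, JAK1 lies lowest at -1.32, and TYK2 and JAK2 are open.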

How the data were processed

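RNA of 6 T47D libraries was extracted with Trizol and sequenced by Illumina protocols, as the labels say. HISAT2 2.1.0, Bowtie2 2.3.4.3 and the build GRCh38.p13 are named in the submitters' processing notes. For the counting tool, the annotation and the strand setting, nothing is given in the sources used here. The authors deposited estimated counts, FPKM and TPM per gene and library, per the file headers; their 6 columns of group means were not used. Counts were rounded and tested with edgeR 4.0.16 under R 4.3.3 (robust quasi-likelihood test, TMM, filter by group), with Benjamini-Hochberg adjustment over 14076 genes. SE is the absolute log2 fold change over the root of F. Counting intervals are exact binomial ones and cover counting error only, since PCR copies are not independent molecules. On simulated data the test called 41 of 60 genes changed 1.5-fold, 63 of 68 changed 2-fold, and 9 of 13731 unchanged genes. The simulation changed few genes and gave both groups the same spread. In these data most genes were called and controls varied more, so those rates do not carry over.

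The members and lists were chosen with earlier results of these data known. The text names all 10 members, per list the 4 genes of smallest adjusted p and any at 0 in all controls and above 10 counts in every PRL library, and, as most alike in pattern, the 3 genes with the smallest root mean square difference of log2 CPM (prior count 2) to IFNL1 and to IFNLR1. Other list genes that fell, did not pass or lost their call in other settings were named after their values were seen. A few genes that the rule or lists hold are not reported here. Alternatives were other scalings (library totals, upper quartile, size factors of DESeq2, and TMM without PRL), other filters, DESeq2 1.42.0, limma-voom (limma 3.58.1), limma on log2 TPM or FPKM with a pseudocount of 1, the replicate number as a block, and each library left out. Positions and transcripts are from GENCODE 29 (GRCh38) and promoters from RefSeq, read with Biopython 1.88.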

Additional observations from a re-analysis of the deposited data

How the results depend on the processing

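The count of genes called was within 1.5 times that reported under all 17 alternatives, but its split was not: 2394 genes were called lower with library totals and 2360 on FPKM, and on TPM 7113 were called higher and 1381 lower, against 4554 and 4300. Pathway genes called lower numbered 4, but 5 with DESeq2, 3 without PRL replicate 3, 2 with totals, 2 on FPKM and 1 on TPM. Those called higher ranged from 31 to 38. The 9 members that lay higher without overlap were 9 or 10 in every alternative. The lower member, IFNAR1, no longer lay apart with upper-quartile scaling, library totals, the filter at 1 CPM or control replicate 3 left out. There 0 members lay lower, a range of 0 to 1 when single libraries were left out. On FPKM and TPM, IFNAR1 lay higher in every PRL library than in any control, which made 10 members higher and 0 lower. The log2 fold change of IFNAR1, -0.17, reversed to 0.078 with totals, 0.25 on log2(FPKM + 1), 0.45 on log2(TPM + 1) and 0.47 on log2(TPM + 0.1). Totals, FPKM and TPM also moved the median of the genes tested. The cause of the reversal was not tested. The other 8 tested members kept their sign in all alternatives. With the replicate number as a block 8531 genes were called. Same-numbered libraries did not deviate together (r = -0.105, 0.043 and -0.057), so no pairing by number was seen, but 3 libraries per group cannot settle it. The order of the members in TPM was the same on FPKM, and changed in controls without control replicate 2 or 3 and in PRL libraries without PRL replicate 2. Depth limits IFNB1, at 3 to 7 counts in PRL libraries, and every control value of the ligands.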

Other observations

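The genes lie in separate parts of the genome, except for the lambda genes and 4 receptor genes. IFNL3, IFNL2 and IFNL1 lie within 55.1 kb on chromosome 19 (GRCh38, 39243553 to 39298673). IFNAR2, IL10RB, IFNAR1 and IFNGR2 lie side by side within 249.4 kb on chromosome 21 (33229901 to 33479348). IFNB1 lies on chromosome 9 (21077105 to 21077963, 1 exon), IFNLR1 on chromosome 1 (24154157 to 24187959) and IFNGR1 on chromosome 6 (137197484 to 137219449). Of 11 protein-coding neighbours tested within 500 kb of the chromosome 21 genes, 3 rose and 5 fell (median log2 fold change -0.33), and of 24 near the lambda genes 6 rose and 11 fell (median -0.31), by edgeR's test over all genes, which called 32.4% of all genes higher and 30.5% lower. These windows were chosen after the data were seen.

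Exons of IFNAR2 and IL10RB are shared with another annotated gene on the same strand, and those of IFNAR2 also with IL10RB-DT on the other strand (83.2% and 38.1% of exon bases shared). For IFNGR2 12.8% overlap TMEM50B on the other strand, which rose from 38.6 ± 2.54 to 50.2 ± 0.944 CPM (edgeR adjusted p = 0.00167). With strand unknown, reads there cannot be assigned with certainty, and their part in the levels of these 3 genes was not tested.

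The genes whose levels over the 6 libraries were most like those of IFNL1 were KCNC2, a potassium channel gene, TMEM140, and S100A7, a secreted calcium-binding protein, with root mean square differences of 0.11, 0.12 and 0.22 in log2 CPM. All 3 had 0 counts in the controls, and 232, 230 and 182 counts in the PRL libraries, against 219 for IFNL1. For IFNLR1 they included MID2 and WDSUB1, with differences of 0.19 each. These are descriptions over 6 libraries in 2 groups.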
